A study of Mus musculus with 47 samples.

Results

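Mouse embryonic stem cells (ESC) that carry no degron were compared with and without 12 hours of auxin. The comparison rests on 6 of the 47 polyadenylated RNA libraries of the series, 3 untreated and 3 with auxin, chosen by the line, stage and treatment in the labels and not by any measured value. The auxin was indole-3-acetic acid at 50 µM, added from a stock in sterile water; the labels call the other group untreated and name no vehicle. The cells are of the C57BL/6 strain and express Tir1, the plant receptor that hands degron-tagged proteins to the proteasome when auxin is bound, so the untagged line has the receptor and auxin but no tagged target. All ESC grew without serum in 100 U/ml LIF, 3 µM of the GSK3 inhibitor CHIR99021 and 1 µM of the MEK inhibitor PD0325901, so ERK signalling was already under an inhibitor in both groups. How many clones the line stands for is not given in the sources used here.

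Other sets of libraries served for comparison. The first was 18 ESC libraries of C57BL/6 Tir1 lines whose SUZ12, MTF2 or JARID2, subunits of the histone methyltransferase complex PRC2, carries an auxin-inducible degron, each with 3 untreated libraries and 3 that had auxin as above. In those lines auxin also removes the tagged protein. The second was 6 libraries of the untagged Tir1 line differentiated to neural progenitor cultures (NPC), 3 untreated and 3 with auxin throughout the 5 days.

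Indole compounds are among the known ligands of the aryl hydrocarbon receptor, a factor that enters the nucleus when bound, pairs with ARNT and switches on genes of foreign-compound metabolism, above all the cytochrome P450 genes Cyp1a1 and Cyp1b1. In stem cells FGF signals through MEK and ERK to ETS factors and to feedback inhibitors of the Sprouty and dual-specificity phosphatase families, and pushes cells out of the naive state. BMP signals through SMAD proteins to the Id genes, whose products hold back basic helix-loop-helix factors of differentiation.

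The untagged ESC libraries held 5.27 to 5.5 M recovered reads untreated (M, 1000000) and 5.42 to 6.17 M with auxin. Sample titles and column names give line, stage, treatment and replicate, and name no sequencing run. Stem cell markers stood at the same summed level in both groups, 6852 to 7016 TPM (reads per gene scaled for transcript length and library size) untreated and 6883 to 6947 TPM with auxin, and 0 of 8 were called. Summed markers of primitive endoderm, trophectoderm, mesoderm and fibroblasts stayed under 19 TPM in every library, with the fibroblast genes Dcn and Lum at 0 in all 6, and the 7 neural markers summed to 251 to 266 TPM untreated and 272 to 278 TPM with auxin, most of it Tubb3. Transcripts of the degron targets of the other lines were not called in this line: Suz12 was 145 ± 3.08 TPM untreated and 163 ± 9.85 TPM with auxin (SD, n = 3, adjusted p = 0.679), Mtf2 had an adjusted p of 0.719 and Jarid2 of 0.744. Auxin acts on the tagged proteins, so these transcripts do not check the labels.

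With auxin alone few genes were called, and most of those called fell. Transcripts of the feedback inhibitor Spry4, the pluripotency factor Utf1 and the BMP targets Id1 and Id3 were lower. Among the called genes Cyp1a1, the classical aryl hydrocarbon receptor target, rose the most, and the other called rises were small. Of 15104 genes tested 32 passed limma's test at an adjusted p under 0.05, a share of 0.212%. Of these 9 were higher (0.0596%) and 23 lower (0.152%), 2 changed at least 2-fold (Cyp1a1 and Spry4), and 1143 genes had an unadjusted p under 0.05. The median size of the 32 changes was 0.39 on the log2(TPM + 0.5) scale, on which all changes below are given with their standard errors, and the median over all tested genes was 0.02. In all 32 genes the 3 auxin libraries lay outside the range of the 3 untreated ones, which was also so for 14.8% of all tested genes. By direction, 9.04% of all tested genes were higher with auxin without overlap and 5.79% lower, and 56.9% had a change above 0. Most calls of a fit to the 6 libraries alone were higher, as given below, so the direction of the 32 calls does not hold for all genes. On the first principal component of the 6 libraries, 23.1% of the variance, the untreated libraries lay at 0.321 to 0.392 and the auxin libraries at -0.73, -0.033 and -0.298. The groups overlapped on the second (20.9%) and the third (19.5%). In bulk RNA, fewer cells of a type and less RNA per cell cannot be told apart.

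**Figure D1:**
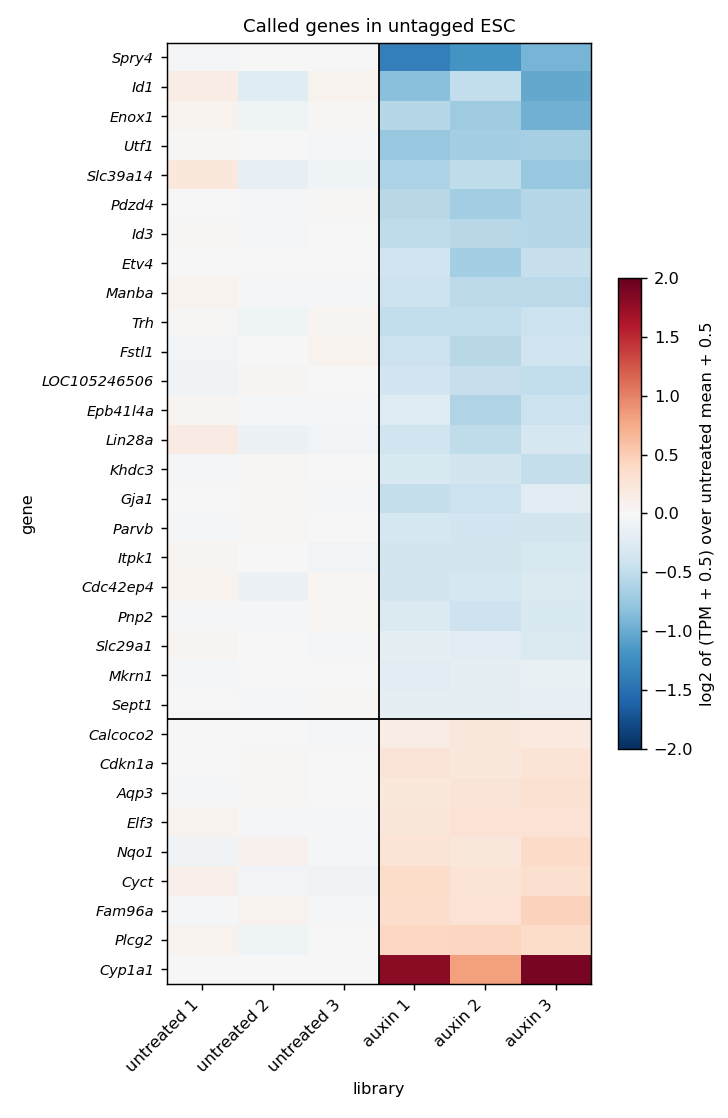
Each row is 1 of the 32 genes called in untagged ESC and each column 1 library; colour gives the log2 ratio of TPM + 0.5 to the untreated mean + 0.5. The 23 lower genes are blue and the 9 higher genes red in all 3 auxin libraries, and Cyp1a1 is palest in auxin replicate 2.

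Of the targets of the aryl hydrocarbon receptor, Cyp1a1 rose 9.74-fold in read rate from almost no transcript, Nqo1 rose a little, and most others did not pass. Cyp1a1 (chromosome 9, 57687928 to 57703824, mm10), which oxidises aromatic compounds, stood at 0.15, 0.142 and 0.146 TPM in the 3 untreated libraries, 1 read in each. With auxin it stood at 1.76, 0.644 and 1.91 TPM, from 12, 5 and 15 reads. Every auxin library was above every untreated one, and the second was the lowest of the auxin group. In ESC it reached 1 TPM in auxin libraries alone, so it was tested only through the group in which it is high. The change was 1.51 ± 0.29 (adjusted p = 0.023, and 0.0112 with no filter on low genes). It was not called in a fit to the 6 libraries alone (adjusted p = 0.252). The ratio of read rates, 32 reads against 3, was 9.74-fold with an exact 95% interval of 3.04 to 49.7 that covers counting error only. Its log2 change depends on the pseudocount, 2.51 with 0.1 and 1.04 with 1, in place of 0.5.

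Cyp1b1 (chromosome 17, 79701537 to 79715061), a P450 of the same family that also acts on estrogens, did not reach the level set for the test. It was read 3 times in the untreated libraries (0, 0.196 and 0 TPM) and 43 times with auxin (0.942, 0.947 and 0.761 TPM). The groups were apart by far more than the spread within either, with a ratio of 13.1 (exact 95% interval 4.19 to 65.9). In a fit with no filter on low genes the change was 1.31 ± 0.21 (adjusted p = 0.00985). Nqo1 (chromosome 8, 107388225 to 107403206), a quinone reductase under control of both the aryl hydrocarbon receptor and the oxidative stress factor NRF2, stood at 144, 160 and 147 TPM untreated and at 182, 176 and 197 TPM with auxin. It rose by 0.30 ± 0.06 (adjusted p = 0.0332), but was not called with no filter (adjusted p = 0.0669) or in a fit to the 6 libraries alone (adjusted p = 0.0838).

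The 250 bases before the RefSeq start (GRCm38.p6, the mm10 assembly) of 3 genes of the list are shown because the first and second hold the largest read ratios of the list and the third codes for the receptor's own repressor. Capitals mark GCGTG, the core of the dioxin response element, on either strand (CACGC on the reverse strand). The Cyp1a1 window lies at chr9:57697363-57697612 on the plus strand, the Cyp1b1 window at chr17:79715062-79715311 and the Ahrr window at chr13:74292332-74292581, both on the minus strand. The position given above for Cyp1a1 is the GENCODE gene, which begins upstream of the RefSeq start, so the Cyp1a1 window lies inside it.
Cyp1a1: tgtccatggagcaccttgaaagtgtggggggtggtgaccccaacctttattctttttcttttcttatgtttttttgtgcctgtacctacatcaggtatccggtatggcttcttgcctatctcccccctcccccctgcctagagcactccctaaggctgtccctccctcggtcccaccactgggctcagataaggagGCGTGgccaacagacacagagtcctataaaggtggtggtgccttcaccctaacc
Cyp1b1: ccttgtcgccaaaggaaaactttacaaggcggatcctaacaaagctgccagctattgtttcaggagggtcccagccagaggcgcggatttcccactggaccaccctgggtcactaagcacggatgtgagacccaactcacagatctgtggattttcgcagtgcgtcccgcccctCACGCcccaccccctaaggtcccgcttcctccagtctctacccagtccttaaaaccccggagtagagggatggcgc
Ahrr: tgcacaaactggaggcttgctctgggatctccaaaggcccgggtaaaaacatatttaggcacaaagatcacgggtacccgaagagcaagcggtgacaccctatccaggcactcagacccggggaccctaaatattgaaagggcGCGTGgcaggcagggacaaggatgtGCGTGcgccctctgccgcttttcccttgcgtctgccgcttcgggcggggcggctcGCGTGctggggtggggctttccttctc
The core occurs once in the Cyp1a1 window, once in the Cyp1b1 window and 3 times in the Ahrr window, and 0 times in the 250 bases before Nqo1. It is common: 28.2% of 27025 promoter windows, 44.6% of those of tested genes and 9 of the 22 called genes with a window (40.9%) hold it. A match describes letters and is not a site or a cause.

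Of the 13 genes of the aryl hydrocarbon receptor list, 7 reached the level set for the test, 2 were called, both higher (0.0596% of all tested genes), and 4 were above 0 (56.9% of all tested genes) with a median of 0.06. Cyp1a1 is among the 7 only through its auxin libraries, so these counts support nothing further. The repressor gene Ahrr was read 5 times untreated and 14 times with auxin, a ratio of 2.56 with an interval of 0.87 to 9.07 that includes 1. Tiparp, an ADP-ribosyltransferase that also represses the receptor, stood at 18.9, 16.6 and 20.9 TPM untreated and 18.4, 16.3 and 17.9 TPM with auxin, and its 95% interval of -0.33 to 0.15 excludes a doubling. The P450 gene Cyp2s1 (-0.25 ± 0.16) and the NRF2 gene Nfe2l2 (0.06 ± 0.07) did not pass either. The receptor gene Ahr, its partners Arnt and Arnt2 and the chaperone genes Hsp90ab1 and Ptges3, 5 genes in all, gave 0 calls. Ahr was transcribed at 3.43, 3.7 and 4.27 TPM untreated and 3.74, 2.88 and 3.25 TPM with auxin. Of 15 tested genes of the NRF2 oxidative stress response, Nqo1 was the 1 called, while 14 were above 0 (12 under another scaling, by median of ratios), as were 56.9% of all tested genes, and the median was 0.07.

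Among targets of the ERK and FGF pathway Spry4 and Etv4 fell, and most of the others had small values below 0. Spry4 (chromosome 18, 38586247 to 38601415) stood at 3.55, 3.63 and 3.65 TPM untreated and at 1.1, 1.28 and 1.67 TPM with auxin, from 119 and 49 reads. The untreated libraries were tight and all 3 auxin libraries were below them by more than that spread. The change was -1.16 ± 0.14 (adjusted p = 0.000128). Etv4 (chromosome 11, 101769742 to 101785371), an ETS transcription factor gene downstream of ERK, stood at 55.2, 55.3 and 54.6 TPM and at 41.6, 34.1 and 40 TPM with auxin, and fell by 0.51 on the log2 scale (SE 0.09, adjusted p = 0.00734). Its call was lost without auxin replicate 2, the lowest of the 3 (adjusted p = 0.0706).

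Among the 26 genes of the list 23 were tested, 2 were called, both lower, and 21 were below 0 (23 of 23 once scaled by median of ratios), against 43.0% of all tested genes. The median was -0.14, and in 8 of the 23 the groups did not overlap with auxin lower, as for 5.79% of all tested genes. The ERK phosphatase gene Dusp6 stood at 9.04, 9.15 and 8.84 TPM untreated and 5.09, 5.67 and 4.95 TPM with auxin, a difference of -0.73 ± 0.16 that missed the threshold over all genes (adjusted p = 0.0548). The growth regulator gene Myc stood at 15.2, 16.2 and 15.5 TPM and at 11.4, 10.3 and 8.36 TPM (-0.63 ± 0.15, adjusted p = 0.114). A linear model on the recovered reads with voom weights called both, Dusp6 at an adjusted p of 0.0364 and Myc at 0.0273. Of the other members, Etv5 (-0.11 ± 0.03), Spry2 (-0.16 ± 0.08) and Ier2 (-0.13 ± 0.06) had small values and did not pass, and Errfi1 was at 0.02. The immediate early gene Egr1 was below the level tested, with 12 reads untreated and 9 with auxin. Of 25 tested ligands, receptors and kinases of the pathway 0 were called, among them Fgf4 (0.10 ± 0.03, adjusted p = 0.449) and the Ras family gene Eras (-0.32 ± 0.09, adjusted p = 0.304).

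Among BMP targets Id3 and Id1 fell, and the others lay on both sides of 0. Id3 (chromosome 4, 136143497 to 136145755) stood at 76, 74.1 and 74.7 TPM untreated and 52.3, 51.1 and 50.1 TPM with auxin. The spread within each group was a few percent and the groups were far apart. It fell by 0.55 on the log2 scale (SE 0.06, adjusted p = 8.18e-05). Id1 (chromosome 2, 152736251 to 152737410) stood at 15.2, 11.5 and 14.5 TPM and at 7.45, 9.64 and 6.48 TPM with auxin, noisier but without overlap, and fell by 0.77 (SE 0.15, adjusted p = 0.023). It was not called on recovered reads (adjusted p = 0.163) or in a fit to the 6 libraries alone (adjusted p = 0.12). Id2 lay the other way, at 3.03, 3.51 and 4.28 TPM untreated and 6.92, 4.35 and 6.88 TPM with auxin, and did not pass (0.66 ± 0.21, adjusted p = 0.404, 33 and 60 reads). The inhibitory SMAD gene Smad7 was at -0.25 ± 0.06 (adjusted p = 0.0954) and was called on recovered reads (adjusted p = 0.0495).

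In all, 12 of 13 BMP targets were tested, 2 were called, both lower (3 under the other scaling), 6 were above 0 and the median was 0.08, where 0.152% of all tested genes were called lower and 56.9% were above 0. Of the 15 tested BMP ligands, receptors, SMADs and antagonists 0 were called. Bmp4, the ligand with the lowest value, stood at 3, 4.08 and 3.48 TPM untreated and 1.65, 1.93 and 2.55 TPM with auxin (-0.67 ± 0.21, adjusted p = 0.384).

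**Figure D2:**
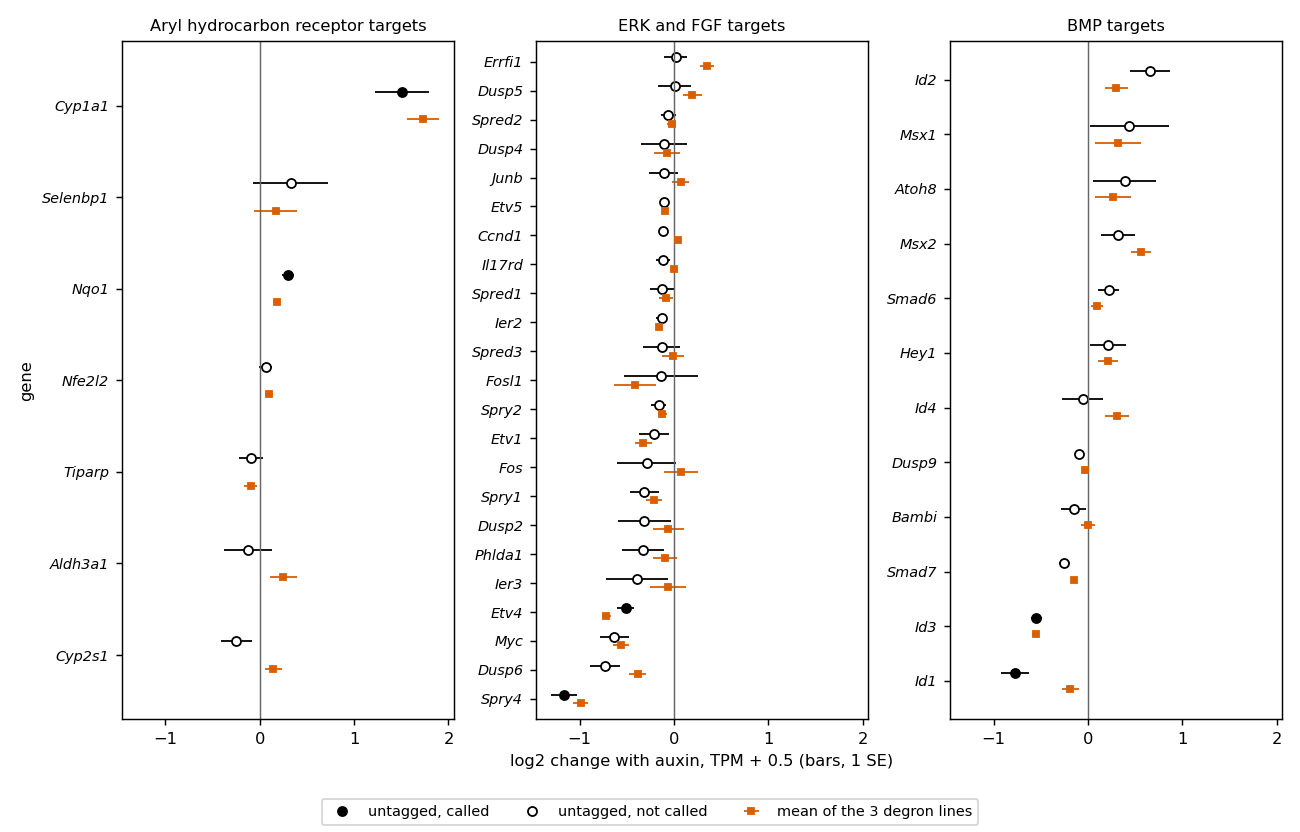
Points give the log2 change with auxin of every tested member of 3 target lists, circles for untagged ESC (filled where called) and squares for the mean of the 3 degron lines, with bars of 1 SE. ERK and FGF targets lie mostly below 0, with Spry4 lowest at -1.16, and BMP targets spread on both sides of 0.

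The call with the smallest p was Utf1 (chromosome 7, 139943789 to 139945112), a chromatin factor gene of pluripotent cells. It stood at 388, 378 and 377 TPM untreated and at 226, 238 and 240 TPM with auxin, from 3176 and 2141 reads. The groups were apart by far more than the spread within them, and the change was -0.70 ± 0.04 (adjusted p = 9.2e-10). Lin28a, whose product blocks maturation of let-7 microRNAs, stood at 48.6, 39.8 and 41.7 TPM and at 32.6, 30.4 and 34.1 TPM with auxin and fell by 0.41 (SE 0.07, adjusted p = 0.0119). These were the 2 called of 16 general pluripotency genes, of which 13 were below 0 and 10 had lower, non-overlapping auxin libraries, with a median of -0.07. Over all tested genes 0.212% were called, 43.0% were below 0 and 5.79% had lower, non-overlapping auxin libraries. Pou5f1, the central factor of the network, was at -0.06 ± 0.03, and L1td1 (-0.22 ± 0.06, adjusted p = 0.299) and Dppa4 (-0.18 ± 0.05, adjusted p = 0.224) did not pass either.

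Of 17 naive pluripotency genes only Manba, the gene of lysosomal beta-mannosidase, was called, at 79.8, 73.8 and 74 TPM untreated and 56.2, 52.8 and 51.8 TPM with auxin (-0.50 ± 0.07, adjusted p = 0.000834). Dppa3 was at 0.28 (adjusted p = 0.0896). Of the 17 genes 11 were above 0 (56.9% of all tested genes). In 6 of them the auxin libraries were higher without overlap and in 1 lower (9.04% and 5.79% of all tested genes). Formative epiblast genes had 0 of 11 called and 10 below 0 (43.0% of all tested genes), the DNA methyltransferase gene Dnmt3a at -0.24 ± 0.06 (adjusted p = 0.0999). WNT targets had 0 of 11 called, with the feedback gene Axin2 at 0.21 ± 0.05 (adjusted p = 0.101), and LIF and STAT3 genes 0 of 13.

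The other lower genes had varied roles. Enox1, a cell surface oxidase gene, fell from a mean of 8.2 to 4.73 TPM (-0.74 ± 0.12, adjusted p = 0.00439). Slc39a14, a zinc and manganese importer gene, fell from 6.69 to 4.17 TPM (-0.62 ± 0.12), and Slc29a1, a nucleoside carrier gene, from 251 to 213 TPM (-0.24 ± 0.04). Another 3 genes act at cell contacts or on the cytoskeleton: Gja1, coding for connexin 43 (-0.37 ± 0.07), Parvb, an adhesion adaptor gene (-0.37 ± 0.07), and Cdc42ep4, a CDC42 effector gene (-0.34 ± 0.05). Itpk1, an inositol phosphate kinase gene, stood at 123, 119 and 115 TPM and at 92, 92.2 and 94.9 TPM with auxin (-0.35 ± 0.04, adjusted p = 0.000128). Trh, the thyrotropin-releasing hormone gene, stood at 162, 150 and 166 TPM and at 113, 112 and 118 TPM (-0.47 ± 0.06, adjusted p = 0.000177). The remaining ones were Pdzd4 (-0.61), the secreted glycoprotein gene Fstl1 (-0.46), LOC105246506 (-0.45), Epb41l4a (-0.43), the KH-domain gene Khdc3 (-0.38), the purine phosphorylase gene Pnp2 (-0.33), the ubiquitin ligase gene Mkrn1 (-0.18) and the septin gene Sept1 (-0.17). Pnp2 overlaps the near-identical Pnp on the same strand, so its reads are uncertain.

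The higher genes besides Cyp1a1 and Nqo1 rose by 14% to 32.6% of their untreated mean TPM. Plcg2, a phospholipase C gene, stood at 47, 42 and 44.9 TPM untreated and 59.6, 60.2 and 57.6 TPM with auxin (0.40 ± 0.06, adjusted p = 0.00193). The cell-cycle inhibitor gene Cdkn1a stood at 163, 165 and 162 TPM and at 194, 190 and 197 TPM (0.25 ± 0.04, adjusted p = 0.00179). It was the 1 called of 20 p53 targets, whose median was 0.01, with Mdm2 at 0.11 (95% interval -0.02 to 0.23). Aqp3, a water and glycerol channel gene, stood at 465, 478 and 468 TPM and at 542, 564 and 578 TPM (0.25 ± 0.03, adjusted p = 0.000177). The epithelial ETS factor gene Elf3 (0.27 ± 0.06), the autophagy receptor gene Calcoco2 (0.19 ± 0.03), the iron-sulfur assembly gene Fam96a (0.37 ± 0.07) and Cyct, the testis form of cytochrome c (0.32 ± 0.06), completed the group. Cyct shares sequence with Cycs, so how its reads were split is uncertain.

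No member was called of the lists for amino acid stress (20 tested), unfolded protein stress (13), heat shock (10), tryptophan and indole metabolism (8), drug metabolism and transport (11), cholesterol synthesis (20), glycolysis (20), proliferation (20) or Polycomb-target regulators (24). Their medians lay between -0.03 and 0.04. Of the 13 unfolded protein stress genes 11 were above 0 (56.9% of all tested genes). In 4 of these 13 the auxin libraries were higher without overlap and in 0 lower. Glycolysis genes went the other way, with 0 of 20 higher and 4 lower. Over all tested genes 9.04% were higher and 5.79% lower without overlap. The lists for NODAL and activin, the Hippo pathway, interferon, retinoic acid, DNA methylation, PRC2 and PRC1 subunits, two-cell-like genes and the germ line also gave 0 calls, the germ line one with 10 of 12 tested genes above 0 (56.9% of all tested genes) and a median of 0.18. Among 11 tested PRC2 subunit genes the auxin libraries were higher without overlap in 4 and lower in 0. With 3 libraries a group and a median SE of 0.12, a change of the size seen for Mkrn1 can be called only in abundant genes, and the 32 genes had a median untreated level of 50.4 TPM against 12.2 TPM for all tested genes.

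Calls near the threshold were fragile. Leaving out 1 of the 6 libraries in turn left 18 to 24 calls, and 14 genes passed in all 6 such fits: Spry4, Utf1, Pdzd4, Id3, Manba, Trh, LOC105246506, Itpk1, Cdc42ep4, Slc29a1, Mkrn1, Plcg2, Cdkn1a and Aqp3. Cyp1a1 passed in 1 of the 6 (without auxin replicate 2), with adjusted p up to 0.198 in the others, and so did Nqo1 (without untreated replicate 2), up to 0.266. Id1 passed in 2 of the 6 and Lin28a in 3. A fit to the 6 libraries alone, with its own estimate of the spread, called 31 genes, of which 13 were among the 32 and 20 were higher, and placed Spry4 at an adjusted p of 0.0537.

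The same genes were then read in the 18 libraries of the degron lines. These are no part of the untagged contrast, but they were in its fit and helped to set which genes were tested and the spread used, so the 32 calls are not independent of them. Averaged over the 3 lines, auxin changed 1190 of 15104 genes (7.88%), 960 higher (6.36%) and 230 lower (1.52%). Scaling by median of ratios, which shifted the median of all genes from 0.05 to 0.00, gave a split of 497 higher and 624 lower. Without that scaling, 10173 of the 15104 genes were above 0 in the degron-line mean and 4931 below. All 32 genes had the same sign in it as in untagged ESC. Of these, 28 were called with that sign, 7 of the 9 higher and 21 of the 23 lower (7 and 22 with median-of-ratios scaling). The median ratio of the degron-line change to the untagged change was 0.94. Id1, Fstl1, Cyct and Fam96a were the 4 not called.

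By line, 26 of the 32 were called with the same sign with SUZ12 tagged, where 6.83% of all genes were called, 25 with MTF2 tagged (1.09%) and 19 with JARID2 tagged (0.298%). In all, 18 were called in all 3 lines, 6 in 2, 4 in 1 and 4 in none, and 27 had the same sign in every line. Over all tested genes, the share called in all 3 lines can be no more than the 0.298% of the JARID2 line. The share of all genes with 1 sign in every line, or called in 1 or 2 lines, was not counted. Those counts are therefore not read as agreement between the lines. Utf1 fell from 493 ± 5.42 to 320 ± 13.2 TPM in the SUZ12 line, from 583 ± 12.3 to 355 ± 5.81 TPM in the MTF2 line and from 551 ± 19 to 366 ± 24.6 TPM in the JARID2 line (SD, n = 3). Spry4 fell by 0.92, 0.98 and 1.06 on the log2 scale and Id3 by 0.49, 0.53 and 0.64, in the same order. The untreated levels differed between lines: Spry4 stood at 3.61 TPM in untreated untagged ESC and at 11.6 TPM in the untreated MTF2 line.

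Cyp1a1 rose in each degron line as well. It had 8 reads untreated and 61 with auxin in the SUZ12 line, 1 and 24 in the JARID2 line, and 0 and 15 in the MTF2 line. With those 0 reads set to a floor of 3 over the group, the MTF2 ratio was 4.39. The exact 95% lower limit of the MTF2 ratio was 3.15. The log2 changes were 2.09 ± 0.29, 1.73 ± 0.29 and 1.38 ± 0.29 in that order, and all 3 were called. Cyp1a1 was tested only through auxin libraries, those of degron lines among them, so these calls support nothing further. Cyp1b1 went from 6 to 38 reads, from 5 to 17 and from 3 to 15, and its mean change over the lines was 0.76 ± 0.12 without the filter (adjusted p = 0.00106). Ahrr went from 6 to 25 reads in the SUZ12 line, from 7 to 13 in the MTF2 line and from 3 to 9 in the JARID2 line (mean change 0.55 ± 0.13, adjusted p = 0.0182, also without the filter). Nqo1 rose by 0.18 ± 0.04 on average.

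Several list members that missed the threshold in 6 libraries passed in these 18. ERK and FGF targets had 7 lower and 1 higher of 23 (1.52% and 6.36% of all tested genes): Spry4, Etv4 (-0.72), Myc (-0.56), Dusp6 (-0.38), Etv1 (-0.33), Ier2 (-0.16) and Etv5 (-0.09) fell and Errfi1 rose by 0.35. By line, 11 of the 23 were below 0 with SUZ12 tagged, 19 with MTF2 tagged and 20 with JARID2 tagged. Over all 15104 tested genes 4366, 6479 and 6260 were below 0, in the same order. General pluripotency genes had 11 of 16 lower, among them Eras (-0.49), L1td1 (-0.24), Dppa4 (-0.21) and Pou5f1 (-0.12). Other lists had more higher than lower calls, among them naive pluripotency (7 and 2 of 17), NRF2 oxidative stress (8 and 0 of 15) and unfolded protein stress (7 and 0 of 13). Over all tested genes 6.36% were higher and 1.52% lower. Id3, with Smad7 (-0.14), fell and Msx2 (0.57) rose among the BMP targets, and the ligand gene Bmp4 fell by 0.71 (SE 0.12). These lines also lose a PRC2 subunit, and in them the effects of auxin and of that loss cannot be told apart.

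The difference between the untagged change and the degron-line mean was tested for each gene. With limma 0 of 15104 genes passed (0.0%) and 957 had an unadjusted p under 0.05. Of the 32 genes 8 did, the smallest adjusted p being 0.586 (Cyct and Fam96a). For Id1 the difference was -0.59 (adjusted p = 0.614): it stood at 12.8 ± 0.78 TPM untreated and 13.2 ± 2.12 TPM with auxin in the SUZ12 line, while in the JARID2 line the means were 19.9 and 14.6 TPM. A difference that misses the threshold does not show that the lines respond alike.

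**Figure D3:**
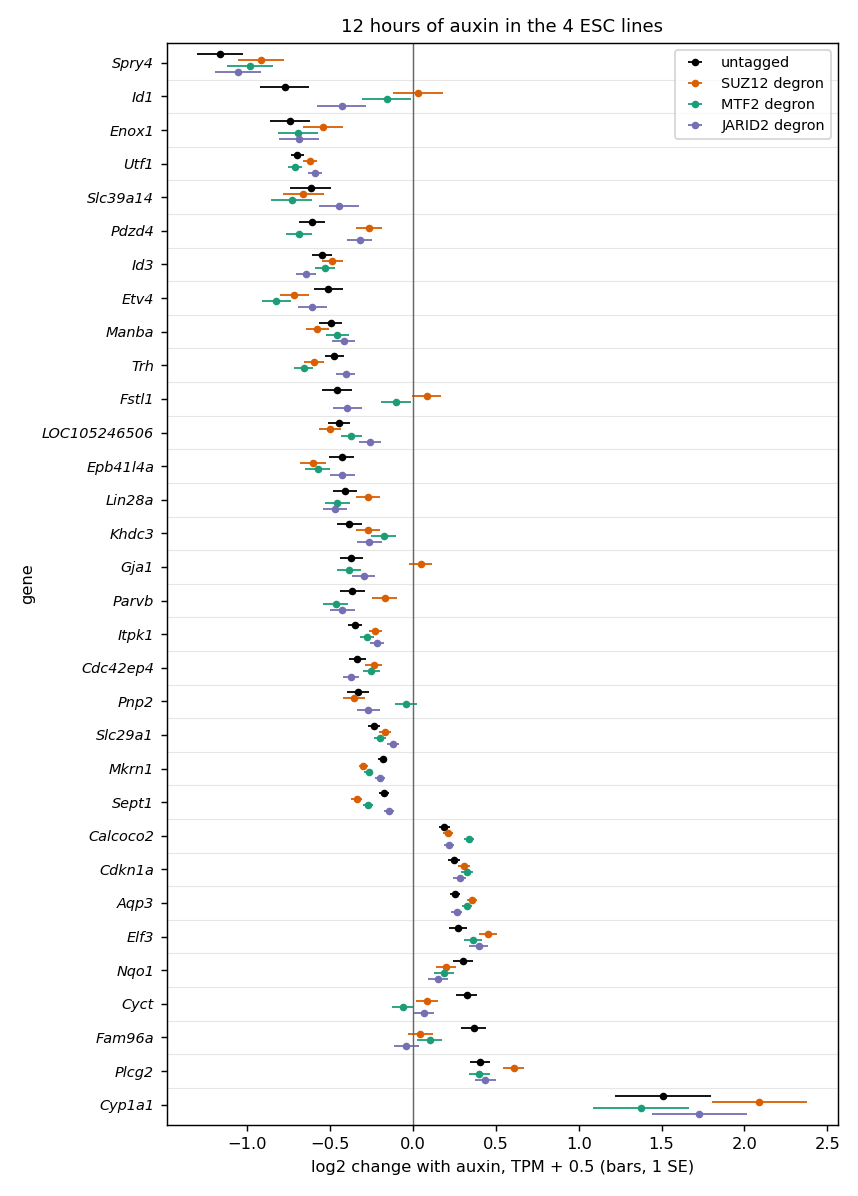
For each of the 32 genes, points give the log2 change with 12 hours of auxin in the untagged line (black) and in each degron line (colours), with bars of 1 SE. The 4 lines overlap for most genes, and Id1, Fstl1, Cyct and Fam96a lie near 0 in the SUZ12 line.

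The 32 genes were also examined in the untagged line after differentiation, where auxin was present for 5 days. With limma 0 of 16469 genes tested in NPC passed (0.0%) and 1180 had an unadjusted p under 0.05. Of the 31 genes with a value 17 had the same sign as in ESC, 5 among the genes higher in ESC and 12 among the lower ones. Of all genes tested in ESC, 5930 were above 0 and 7943 below 0 in NPC, so the count of shared signs supports nothing further. There 4 had an unadjusted p under 0.05, all lower: Spry4 (-0.72 ± 0.26), Parvb (-0.25 ± 0.09), Pdzd4 (-0.19 ± 0.08) and Fstl1 (-0.10 ± 0.05). Cyp1a1 had 1 read untreated and 4 with auxin in NPC and Cyp1b1 23 and 20.

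Many of the genes had higher levels in ESC than in NPC. In the untreated libraries of the degron lines, 9 of each stage, 13 of the 23 lower and 6 of the 9 higher genes had at least 2-fold the NPC level in ESC, against 17.1% of all tested genes. The reverse held for 4 of the 23 and 1 of the 9, against 23.65% of all tested genes. The genes were called in ESC and were more abundant there than most tested genes, and these shares were not matched for level. Utf1 was at 8.1 ± 3.05 TPM in untreated untagged NPC, Plcg2 at 3.07 ± 0.274 and Aqp3 at 0.714 ± 0.477, so their NPC changes rest on low levels. Id3 and Id1 lay the other way, as did Dusp6, which was not called in ESC. Id3 stood at 419 ± 19 TPM in untreated NPC and 442 ± 14.9 TPM with auxin (0.08 ± 0.06), Id1 at 99.1 ± 5.22 and 98 ± 5.7 TPM, and Dusp6 at 49.1 ± 1.8 and 47.4 ± 2.48 TPM. The stages differ in cells, medium, inhibitors and length of treatment, which cannot be told apart here.

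Of 17760 genes, 1 had a change that differed between the stages, 0.00563%, and 1331 had an unadjusted p under 0.05. That gene was Id3, at -0.55 in ESC and 0.08 in NPC, with a difference of -0.63 ± 0.08 (adjusted p = 9.56e-05). For Utf1 (-1.01, adjusted p = 0.131), Etv4 (-0.68, 0.154) and Spry4 (-0.45, 0.775) the difference did not pass.

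**Figure D4:**
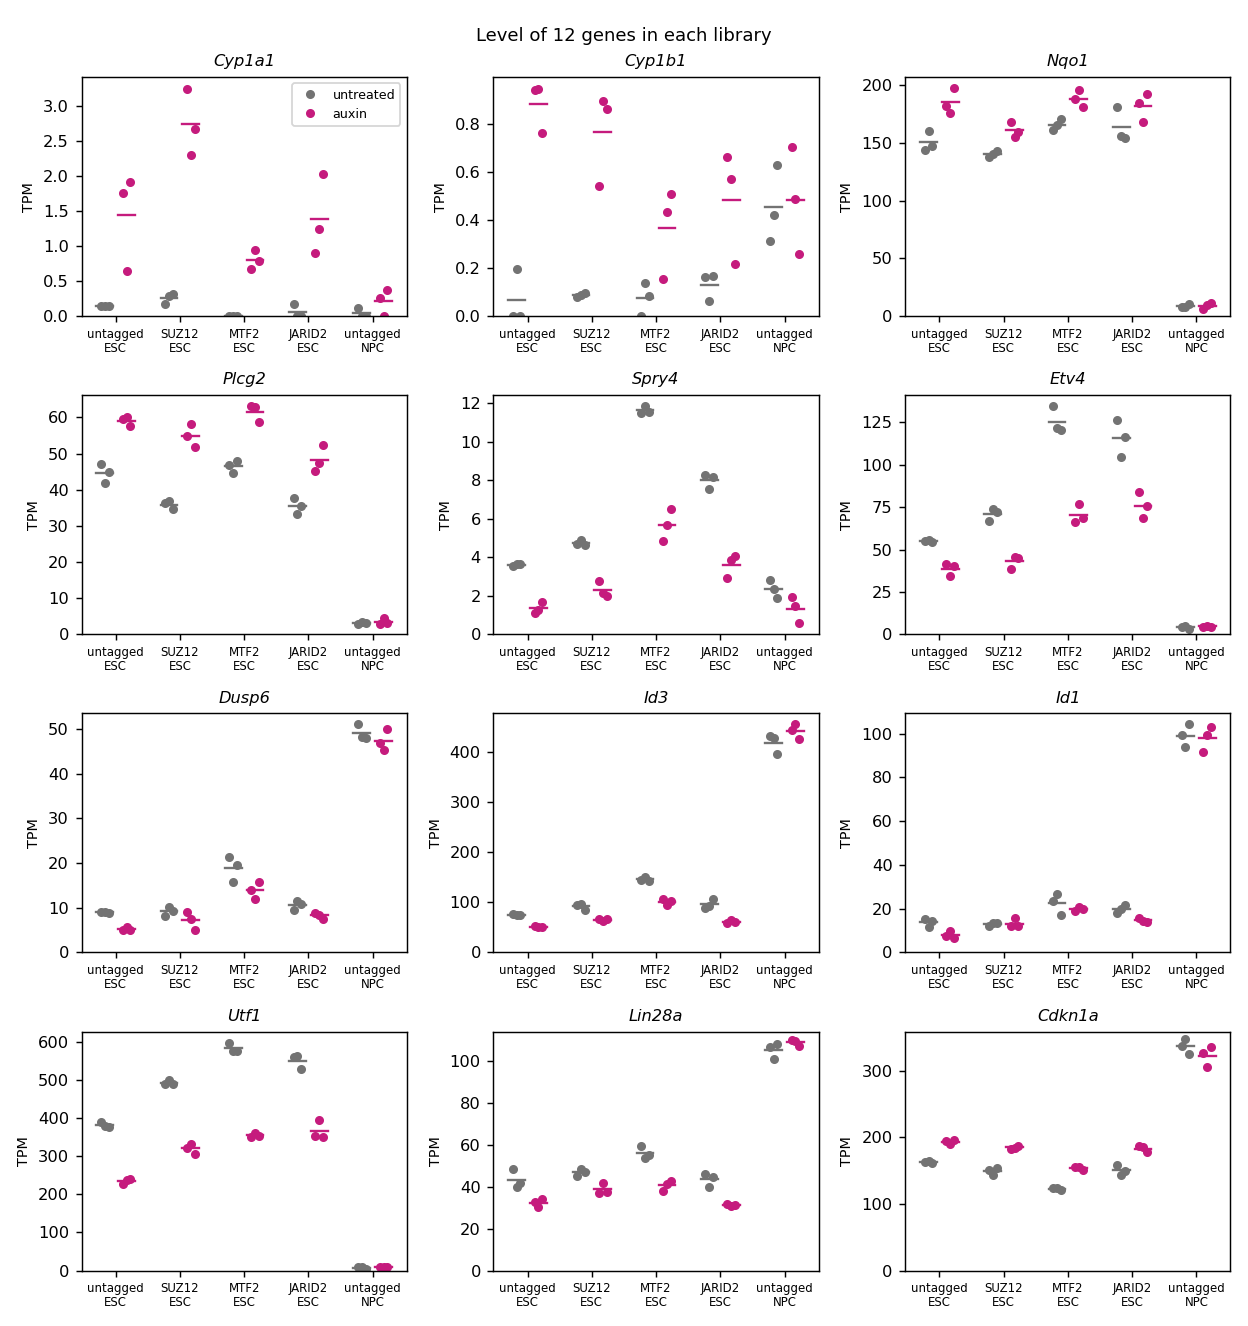
Each point is the TPM of 1 library and each bar the mean of 3, untreated (grey) and with auxin (magenta), for 12 genes in the 4 ESC lines and in untagged NPC; every axis starts at 0. Spry4, Etv4, Id3 and Utf1 are lower and Cyp1a1, Plcg2 and Cdkn1a higher with auxin in all 4 ESC lines, and Id3 and Id1 stand highest in NPC.

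**Figure D5:**
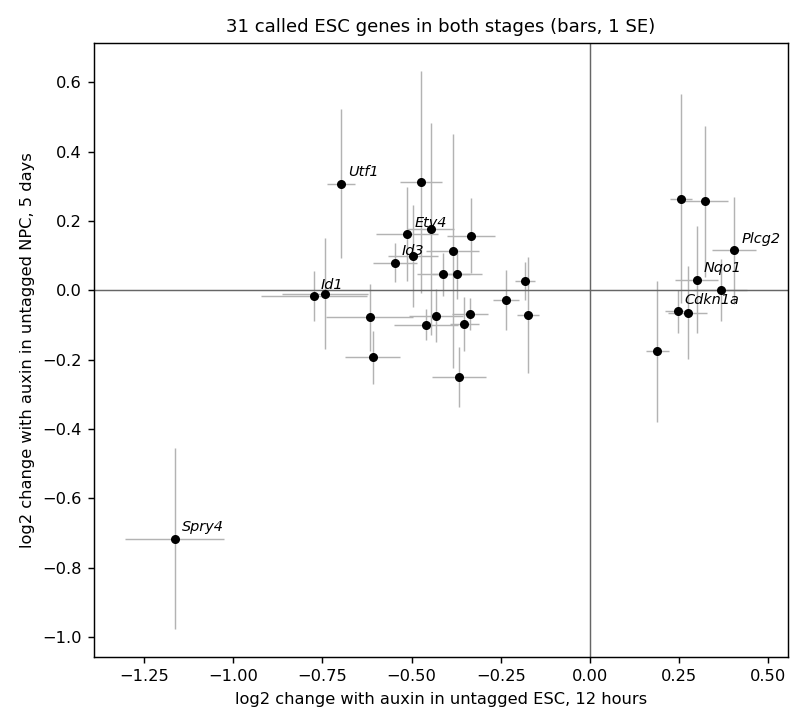
The log2 change with auxin in untagged ESC (horizontal) and untagged NPC (vertical) is plotted for the 31 called ESC genes that have a value in both, with bars of 1 SE. Spry4 is the lowest in both stages, and Id3 and Utf1 lie below 0 in ESC and above 0 in NPC.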

How the data were processed

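The authors deposited 1 table of TPM for 35856 gene symbols in 47 libraries; TPM is scaled so that each library sums to 1000000. Libraries were made from polyadenylated RNA with a strand-marking method, per the labels' protocols. The submitters' processing notes name STAR 2.6.1d and the mm10 build. Sources used here do not give the counting tool, its strand setting or the annotation, and antisense genes overlap some called genes, such as Cdkn1a and Elf3. TPM of a gene came in whole multiples of 1 step per library, which gave whole reads within 0.001 and a depth of 3.24 to 8.71 M reads.

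The test was limma 3.58.1 (R 4.3.3, trend and robust), run for genes that reached 1 TPM in 2 of the 24 ESC libraries, on log2(TPM + 0.5), in 1 fit of all 8 ESC groups; NPC and stage comparisons used the same settings. P-values are two-sided with Benjamini-Hochberg adjustment over all genes tested, and the method was tested on simulated data. An interval of a log2 change is 1.96 SE to each side. The labels call replicates biological but name no separate cultures, so p-values measure the spread between these samples. Replicates of a group of untagged ESC differed by 1.12 to 1.31 times counting error (chi-square per degree of freedom over genes), so counting error was a large part of their spread.

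All genes called in untagged ESC are named, together with members of 37 lists written from general knowledge. The members, lists and comparisons were chosen with earlier results of these data known. Positions are from GENCODE M21 on GRCm38, and 22 of the 32 called genes had a RefSeq promoter window. Alternatives were pseudocounts of 0.1 and 1, no filter, a filter of 5 TPM, median-of-ratios scaling, voom on recovered reads, a replicate block, a fit to the 6 compared libraries and leaving out each library.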

Additional observations from a re-analysis of the deposited data

Results flagged for a closer look

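The change of Id3 with auxin differed between the stages of the untagged line by a test of the difference itself: it was lower by 0.627 more on the log2 scale in ESC than in NPC (difference -0.627, SE 0.08, limma adjusted p = 9.56e-05 over 17760 genes). All 3 auxin libraries were below all 3 untreated ones in ESC, at 50.1 to 52.3 TPM against 74.1 to 76 TPM, and the NPC means were 442 and 419 TPM with and without auxin. The stages also differ in medium, MEK inhibitor and length of treatment, and their part in the difference was not tested.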

How the results depend on the processing

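The 32 calls in untagged ESC numbered 32 with a pseudocount of 0.1 or 1, 29 with no filter, 42 with median-of-ratios scaling, 34 with a filter of 5 TPM and 31 in a fit to the 6 libraries alone. Voom on recovered reads called 57, of which 28 were among the 32. The replicate block gave 21, of which 20 were shared; same-numbered untreated and auxin libraries had correlations of 0.0245, 0.0088 and 0.00788, so the numbers were not treated as pairs. With the block Id1 and Nqo1 (both adjusted p = 0.119) and Cyp1a1 (0.138) were not called. Leaving out 1 library gave 18 to 24: 18 when untreated replicate 3 was dropped, 19 when any auxin replicate was. Of the 32 genes 10 passed in all 14 alternatives, and 0 changed sign in any. Errfi1, not called, was at -0.000229 with the scaling and at -0.0539 to 0.0739 when 1 library was left out.

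Leaving out 1 library gave 852 to 1407 calls for the degron-line mean, 0 to 1 for the difference between the untagged line and that mean, 0 to 2 in untagged NPC and 1 to 4 for the difference between the stages. In untagged NPC 1 gene was called with no filter and 3 in a fit to its 6 libraries alone. For the stages 2 were called with no filter and 2 with the scaling, and Id3 was called in every alternative run. The block changed no other count by over 1.5 times. The cause of these shifts was not tested. At 3 libraries a group and about 5 to 6 M reads, genes near 1 TPM rest on few reads, so small changes of low genes were not detectable.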

Other observations

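Voom on recovered reads called 29 genes in untagged ESC that limma on TPM did not. Besides Dusp6, Myc and Smad7 they included the DNA methyltransferase gene Dnmt3a (-0.25, adjusted p = 0.00183), the ETS repressor gene Erf (-0.22, adjusted p = 0.00143), the carrier gene Slc16a6 (0.38, adjusted p = 0.00468) and the poly(ADP-ribose) polymerase gene Parp1 (-0.14, adjusted p = 0.00528). These were the 4 with the smallest adjusted p among the 29, chosen after their values were seen. The WNT feedback gene Axin2 (0.21, adjusted p = 0.0432) and the naive gene Dppa3 (0.27, adjusted p = 0.0148) were also among them, both higher with auxin.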
